A study of Mus musculus with 18 samples.

Results

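Collagens are the main structural proteins of connective tissue and are encoded by a large gene family. All 44 genes that carry a collagen chain symbol and are annotated as protein coding were taken by their symbol from a table of 47729 genes. Their mRNA was compared in the retinal pigment epithelium (RPE), the pigmented cell layer behind the photoreceptors, of rd1 mice (FVB/N) at postnatal day 40. The rd1 allele removes Pde6b function, so that the rods of every animal here were lost early and the cones were degenerating. Of 9 mice, AAV-Best1-Nrf2 was injected under the retina of one eye along with AAV-Best1-GFP, and AAV-Best1-GFP alone under that of the other, which gave 9 Best1-Nrf2 and 9 control libraries. The study's methods name fewer pairs for this comparison than the sample labels, and all 9 labelled pairs were used here. Both vectors were driven by the human Best1 promoter, which restricts expression largely to the RPE, and carried either the human cDNA of Nrf2, a transcription factor of the oxidative stress response, or green fluorescent protein. There was therefore no uninjected eye and no eye with healthy photoreceptors among these samples. By the study's methods the Nrf2 vector had a different capsid from the GFP vector and was given on top of it. Best1-Nrf2 eyes thus received a higher total vector dose. Effects of dose and capsid cannot be told apart from those of Nrf2 here. After the retina and adhering connective tissue were taken off, the eyecup went into an RNA-stabilizing reagent, and the RNA was purified from the supernatant, as a way to isolate that of the RPE. Cells other than the RPE could still contribute, and fewer cells of a type cannot be told apart from less RNA per cell.

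A collagen molecule is a triple helix of 3 chains, which may be the products of 1, 2 or 3 genes. Fibrillar collagens build the banded fibers of sclera and of the inner layers of Bruch's membrane, the sheet on which the RPE rests. Type IV collagens form the mesh of basement membranes, and the RPE makes such a membrane at its basal side. Fibril-associated collagens sit on the surface of fibers, network-forming collagens build open lattices, type VI collagen builds beaded filaments, and transmembrane collagens are anchored in the cell surface.

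The stretches of DNA directly upstream of the 5 collagen genes whose mRNA passed the test described below are shown here, because a transcription factor was delivered and because Col4a4 shares its stretch with the gene for its partner chain. They are taken from RefSeq on GRCm38.p6 and written 5′ to 3′ on the strand of the gene. The stretches are chr10:34389731-34389980 on the plus strand for Col10a1, chr4:63215162-63215411 on the plus strand for Col27a1, chr1:45311288-45311537 on the plus strand for Col3a1, chr1:90843972-90844221 on the minus strand for Col6a3, and chr1:82586850-82586920 on the minus strand for Col4a4. The first 4 are 250 bases long, and the last is the whole interval of 71 bases between the first exon of Col4a4 and that of Col4a3. The Col27a1 stretch lies inside the gene as GENCODE draws it, between its exons, since RefSeq places the start farther downstream. Capitals mark the letters TATAAA, the consensus of a TATA box.
Col10a1: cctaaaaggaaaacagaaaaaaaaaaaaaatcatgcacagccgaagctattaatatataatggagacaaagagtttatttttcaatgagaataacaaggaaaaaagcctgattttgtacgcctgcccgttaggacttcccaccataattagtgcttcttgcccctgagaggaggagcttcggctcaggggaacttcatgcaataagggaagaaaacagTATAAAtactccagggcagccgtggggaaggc
Col27a1: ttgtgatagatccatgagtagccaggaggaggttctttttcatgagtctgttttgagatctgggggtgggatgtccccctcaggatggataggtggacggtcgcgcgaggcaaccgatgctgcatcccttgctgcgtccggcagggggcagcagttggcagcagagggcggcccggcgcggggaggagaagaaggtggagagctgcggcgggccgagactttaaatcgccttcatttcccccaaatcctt
Col3a1: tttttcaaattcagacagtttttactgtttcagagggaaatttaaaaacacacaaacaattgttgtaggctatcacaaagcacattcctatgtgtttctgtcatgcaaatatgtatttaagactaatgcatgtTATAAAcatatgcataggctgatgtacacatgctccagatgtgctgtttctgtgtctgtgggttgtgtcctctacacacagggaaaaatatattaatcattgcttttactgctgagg
Col6a3: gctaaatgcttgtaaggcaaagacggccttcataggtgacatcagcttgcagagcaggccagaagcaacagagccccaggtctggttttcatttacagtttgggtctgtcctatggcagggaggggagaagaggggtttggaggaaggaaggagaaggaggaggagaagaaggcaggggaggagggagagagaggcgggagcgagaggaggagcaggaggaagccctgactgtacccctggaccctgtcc
Col4a4: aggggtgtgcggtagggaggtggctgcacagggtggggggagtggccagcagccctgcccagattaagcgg

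The letters TGACNNNGC, the core of the antioxidant response element bound by Nrf2 with small Maf proteins, and a second spelling of it, TGA, any 4 bases and then GCA, were searched on both strands of windows that run from 250 bases before to 50 bases after each start. Both forms can overlap. Windows were found for 35 of the 44 collagen genes, 38 windows in all, and not for Col1a1, Col2a1, Col4a3, Col5a2, Col9a3, Col12a1, Col14a1, Col22a1 and Col26a1. The first form was present in 7 of the 38 windows (18.4%), against 12.4% of 32851 windows genome-wide, and those 7 belong to Col4a2, Col6a2, Col6a5, Col7a1, Col9a2, Col13a1 and Col24a1. The second form was present in 2 windows (5.26%), those of Col17a1 and Col6a5, against 13% of all windows. Neither form was found in the windows of the 5 genes shown above. After this was seen, TATAAA and CCAAT, the letters of the TATA and CCAAT boxes, were searched on both strands as well. TATAAA was held by 5 collagen windows (13.2%, against 13.6% of all), including that of Col10a1, 32 bases before the start, and that of Col3a1, 117 bases before it, and CCAAT by 13 (34.2%, against 37.4%). These are matches of letters, and no binding was measured.

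Libraries held 18956748 to 44054836 counts in control and 32839893 to 49598700 in Best1-Nrf2 eyes. Levels are in CPM, the count of a gene relative to the library total, scaled between libraries by the trimmed mean of M-values (TMM). Nfe2l2, the mouse gene for Nrf2, had 76.7 to 134 CPM in control eyes (median 83.0) and 275 to 704 CPM in Best1-Nrf2 eyes (median 457), higher in 9 of 9 mice, so that the labels and the delivered gene matched in every pair. How much of this came from the human cDNA was not tested. At the threshold of the edgeR test described below (adjusted p under 0.05), 3.12% of all genes were higher and 1.13% lower. RPE markers were abundant except Best1 (mean CPM 1.46 in control eyes and 2.80 after Best1-Nrf2, adjusted p = 0.0555). Of the 18 RPE markers 5 were lower and none higher past the threshold. Their median log2 fold change was -0.32, with 4 positive and 14 negative. Rpe65 had the largest fall, from a mean of 2021 CPM in control to 297 in Best1-Nrf2 eyes. Markers of other cells also differed between the groups, to be read against the same shares of all genes. Of 11 cone markers 10 were lower (median log2 fold change -3.25), and of 18 macrophage and microglia markers 11 were higher (median 1.65; summed level 237 to 587 CPM in control and 326 to 921 CPM in Best1-Nrf2 eyes). None of the 15 fibroblast and sclera markers passed, though 14 had a positive log2 fold change, and their sum ran from 237 to 822 CPM in control and from 484 to 985 CPM in Best1-Nrf2 eyes. Rod markers (3 lower and 1 higher of 8 tested) and pericyte and smooth muscle markers (2 lower of 10) also held genes past the threshold, and endothelial, Müller glia, melanocyte and Schwann cell, and red blood cell markers held none.

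In control eyes, collagen mRNA made up 0.363% ± 0.235 (SD, n = 9) of all counts, with a range from 0.114% to 0.863%. In Best1-Nrf2 eyes it made up 0.302% ± 0.163 (SD, n = 9) and ranged from 0.0876% to 0.576%. The share was higher in 4 of 9 mice, and the mean difference within mice of -0.0611 percentage points did not pass a two-sided exact sign-flip permutation test (p = 0.289). Most of it came from 3 genes, Col8a1, Col9a3 and Col8a2, which held 72.2% ± 10.2 of collagen counts in control and 66.2% ± 6.84 in Best1-Nrf2 eyes (SD, n = 9).

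Per kilobase of transcript, the highest collagen level in control eyes was that of Col9a3, a chain of the fibril-associated type IX collagen of cartilage and vitreous, at 274.5 ± 170 CPM per kb (SD, n = 9). Col8a1 followed at 210.8 ± 118 and Col8a2 at 159 ± 182 CPM per kb. These are the chains of type VIII collagen, known from the hexagonal lattice of Descemet's membrane in the cornea and from vessel walls. The SDs of these 3 genes overlap, so that their order is not firm. Next came Col18a1, the heparan sulfate collagen that carries endostatin, at 36.8 ± 39.0 CPM per kb, and Col17a1, the hemidesmosome collagen of epithelia, at 20.2 ± 16.7 CPM per kb. Col4a4 (11.8 ± 3.98) and Col4a3 (9.41 ± 5.34 CPM per kb) led the type IV chains, and Col1a2 (6.62 ± 2.31 CPM per kb) led the fibrillar ones. Col10a1 was the lowest of the 39 genes that could be tested, at 0.0493 ± 0.0386 CPM per kb. The plot of levels per length shows that the genes span several orders of magnitude. In rank among the 44 genes, Col8a1, Col9a3, Col8a2, Col18a1 and Col17a1 held the top 5 places in both groups, while Col6a3 went from place 28 in control to 16 in Best1-Nrf2 eyes, Col27a1 from 35 to 22, Col10a1 from 39 to 30 and Col4a4 from 6 to 10.

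**Figure D1:**
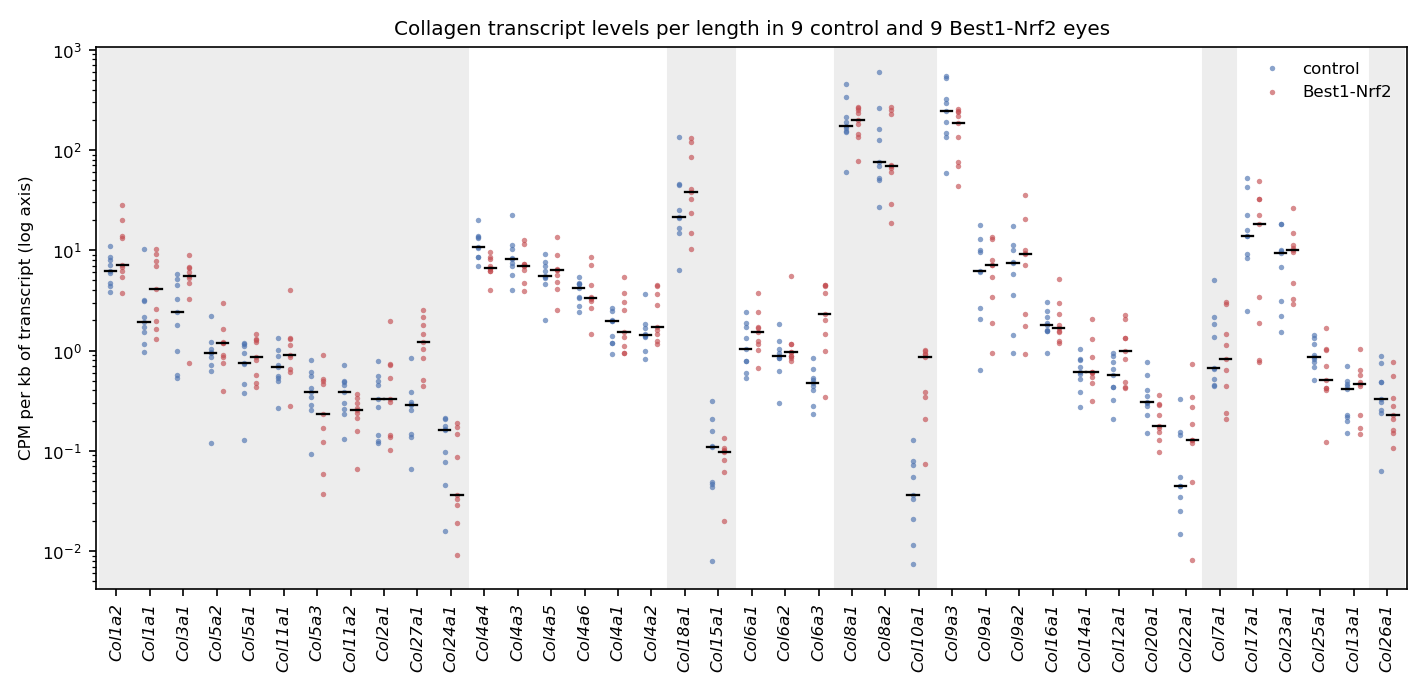
Level of each of the 39 tested collagen genes in CPM per kb of transcript (log axis), by class on shaded and white bands; points are libraries (blue, 9 control; red, 9 Best1-Nrf2) and bars are medians. Col8a1, Col8a2 and Col9a3 lie highest in both groups, and Col10a1 rises from the bottom of the plot; 1 Best1-Nrf2 library with no Col15a1 count is not drawn.

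A further 5 collagen genes were not tested for lack of counts. These were Col6a4 (at most 1 count in a library), Col28a1 (2), Col19a1 (16), Col6a6 (60) and Col6a5 (89). Of the 39 tested, 5 differed between the eyes of a mouse at an adjusted p under 0.05 in edgeR's quasi-likelihood test with mouse as a block, against 4.25% of all 18958 genes tested. Col10a1, Col6a3, Col27a1 and Col3a1 rose, where 3.12% of all genes did, and Col4a4 fell, where 1.13% did. Of these, Col10a1 was tested only through the group in which it was high. With at least 10 counts required in every library 4 passed, beside 4.67% of all genes. That filter left out Col10a1 and also Col5a3, Col15a1, Col22a1, Col24a1 and Col26a1. Leaving out 1 mouse gave 1 to 5, with 1 without mouse 5 and 2 without mouse 9, beside 3.04% and 3.08% of all genes. With the mean level of rod and cone markers added to the fit as a covariate none of the 39 passed, 42 of all genes did, and Nfe2l2 itself did not (log2 fold change 1.87, adjusted p = 0.101). In that fit the log2 fold changes were 3.04 for Col10a1, 2.84 for Col27a1, 1.84 for Col6a3 and -0.54 for Col4a4 (adjusted p = 0.154, 0.247, 0.294 and 0.489), while that of Col3a1 turned to -0.0761 (adjusted p = 0.96). The part of the RPE, macrophage and fibroblast markers in the collagen values was not tested. At an unadjusted p under 0.05 there were 7 collagens, where 12.8% of all genes were. The median log2 fold change of the 39 genes was 0.22, with 23 positive and 16 negative, beside -0.03 over all genes tested. No collagen had groups that did not overlap, as 1.17% of all genes did. Changes given below as a log2 change are fitted log2 fold changes, Best1-Nrf2 over control, each with its standard error (SE) after the ± sign.

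**Figure D2:**
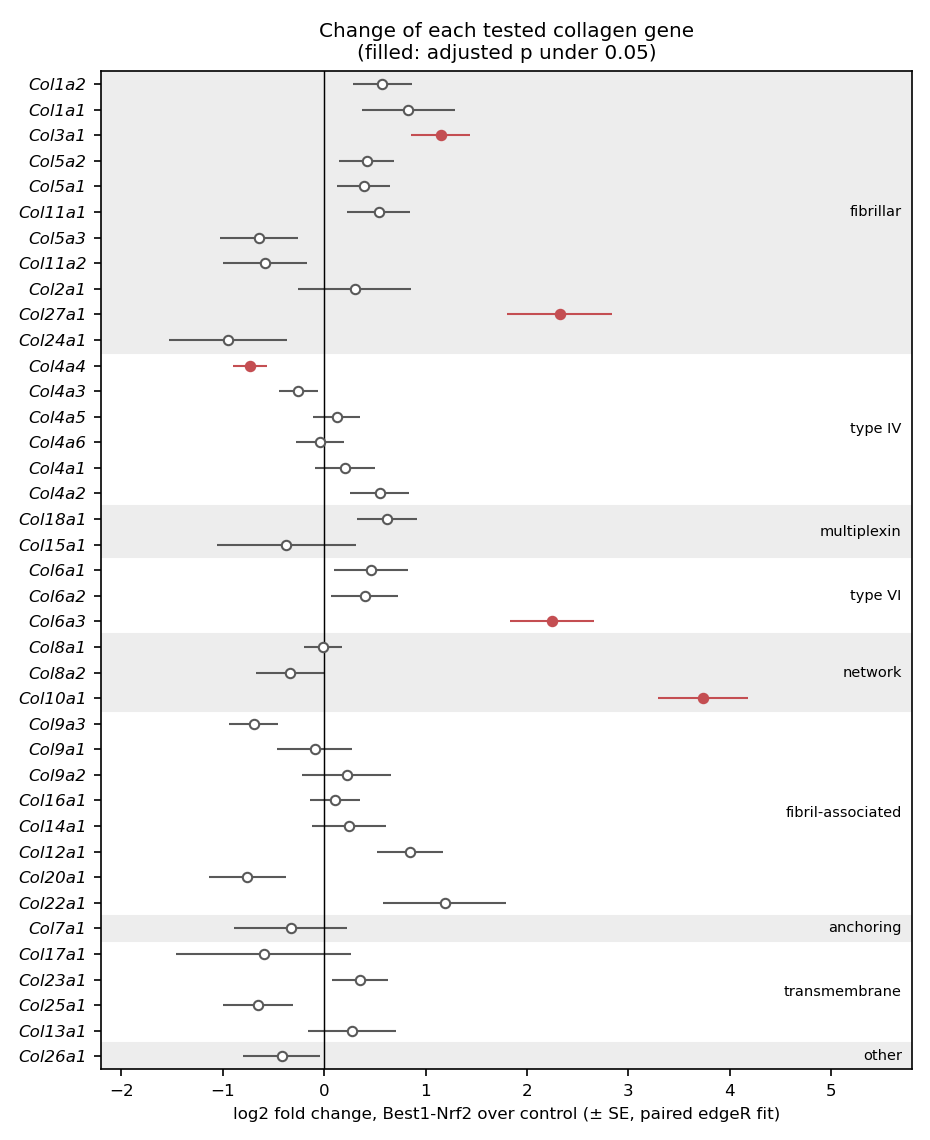
Log2 fold change of each tested collagen gene, Best1-Nrf2 over control, with its SE from the paired edgeR fit; filled red points have an adjusted p under 0.05. The 4 genes that rose (Col10a1, Col27a1, Col6a3 and Col3a1) come from 3 classes, and Col4a4 is the only filled point below 0.

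Col10a1, a short-chain network collagen known as the marker of hypertrophic cartilage, had the largest change. Control eyes had 0.0232 to 0.397 CPM (median 0.115) and Best1-Nrf2 eyes had 0.231 to 3.14 CPM (median 2.70). Of the Best1-Nrf2 libraries, 8 lay above the highest control, and that of mouse 3 was the exception. Its log2 change was 3.74 ± 0.45 (adjusted p = 0.000375), with a rise in 9 of 9 mice, as 3.12% of all genes had. The level stayed low in both groups, with 1 to 10 counts in a control library and 6 to 129 in a Best1-Nrf2 library. The count minimum, 0.269 CPM, was reached by 1 control and 8 Best1-Nrf2 libraries, so the gene entered the test through the group in which it was high. Of 10 cartilage markers that are not collagens, Matn1 was at 0 in every library and Acan had at most 0.129 CPM. Matn3 and Chad were present, at means of 24.97 and 1.89 CPM in control and 19.2 and 2.66 CPM in Best1-Nrf2 eyes. The sum of the list ran from 119 to 444 CPM in control and from 121 to 328 CPM in Best1-Nrf2 eyes, most of it Sox9, at means of 218 and 214 CPM. Comp, a matrix protein of cartilage and tendon, was the 1 of 6 tested that rose (log2 fold change 2.51, adjusted p = 0.0134), and it too entered the test through the group in which it was high, with 4 control and 9 Best1-Nrf2 libraries at the count minimum. Nt5dc1 shares 18 exon bases with Col10a1 on the opposite strand and had a log2 fold change of 0.05 (adjusted p = 0.941).

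Of the 3 type VI chains tested, which form beaded filaments between cells and larger fibers, 1 rose, beside 3.12% of all genes. Col6a3 encodes the long α3 chain, whose end can be cleaved off as endotrophin. It had 2.10 to 7.59 CPM (median 4.24) in control and 3.08 to 40.7 CPM (median 20.9) in Best1-Nrf2 eyes. Again 8 Best1-Nrf2 libraries exceeded every control and mouse 3 did not, with a difference of -0.45 between its eyes on the log2 scale. The log2 change was 2.25 ± 0.41 (adjusted p = 0.00756). The other two chains of the filament had smaller estimates that did not pass. Col6a1 ran from 2.20 to 9.88 CPM in control and from 2.72 to 15.4 CPM in Best1-Nrf2 eyes, with a log2 change of 0.46 ± 0.36 (adjusted p = 0.71). Col6a2 ran from 1.197 to 7.23 and from 3.13 to 21.9 CPM, with a change of 0.40 ± 0.33 (adjusted p = 0.728), and of -0.000998 without mice 6 and 8. Its highest value, in mouse 6, was far from the other 8 Best1-Nrf2 libraries. Col6a1 and Col6a2 are neighbors on chromosome 10, 85.2 kb apart, whereas Col6a3 is on chromosome 1. The summed level of the type VI genes, which is mainly that of these 3, was higher in 9 of 9 mice. It was 9.06 to 19.2 CPM in control and 13.9 to 56.5 CPM in Best1-Nrf2 eyes. In Best1-Nrf2 eyes Col6a3 held most of it, at a mean of 24.3 of 37.3 CPM. Col6a1 alone was higher in 4 of 9 mice and Col6a2 in 6.

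Of the 11 fibrillar collagens, 2 rose, none fell and 9 did not pass, where 3.12% of all genes rose and 1.13% fell. Their median log2 fold change was 0.42 (8 positive and 3 negative). Col27a1, a fibrillar collagen of cartilage with a shortened helix, had 0.501 to 6.44 CPM (median 2.18) in control and 3.37 to 19.3 CPM (median 9.25) in Best1-Nrf2 eyes. In 6 Best1-Nrf2 libraries it lay above the highest control, which was that of mouse 8, the only animal with a lower value in the Best1-Nrf2 eye (by 0.93 on the log2 scale). The log2 change was 2.32 ± 0.52 (adjusted p = 0.0235), and the adjusted p was 0.0598 to 0.0763 without mouse 2, 4, 5, 7 or 9. Col3a1, the chain of type III collagen in distensible tissues such as vessel walls, had 2.99 to 32.1 CPM (median 13.6) in control and 4.14 to 49.8 CPM (median 30.97) in Best1-Nrf2 eyes. The groups overlapped widely, but the Best1-Nrf2 eye was higher in 9 of 9 mice, as for 3.12% of all genes. The difference lay between 0.20 and 2.57 on the log2 scale. The log2 change was 1.15 ± 0.29 (adjusted p = 0.0462), just inside the threshold, and the adjusted p was 0.0559 to 0.131 without mouse 1, 2, 3, 5, 7 or 9. Without the replicate block, in a fit that ignores which eyes share a mouse, Col3a1 no longer passed and 4 of the 39 collagens did. With the rod and cone markers as a covariate its estimate was -0.0761 (adjusted p = 0.96).

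Type I collagen, the main fiber protein of sclera, did not pass. Col1a1 had 5.72 to 61.4 CPM (median 11.5) in control and 7.71 to 61.3 CPM (median 24.4) in Best1-Nrf2 eyes, with a log2 change of 0.83 ± 0.46 (adjusted p = 0.513). Col1a2 had 20.6 to 59.1 CPM (median 32.9) and 20.2 to 151 CPM (median 38.0), with 0.57 ± 0.29 (adjusted p = 0.465). For both, the highest control library was that of mouse 1. The remaining 7 fibrillar genes, Col2a1, Col5a1, Col5a2, Col5a3, Col11a1, Col11a2 and Col24a1, ran from -0.95 to 0.54 in log2 fold change. The summed level of the fibrillar genes was 58.2 to 193 CPM in control and 51.4 to 289 CPM in Best1-Nrf2 eyes and was higher in 8 of 9 mice. The fibroblast and sclera markers given above were higher in sum in 7 of 9 mice, and their part in the fibrillar values was not tested.

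**Figure D3:**
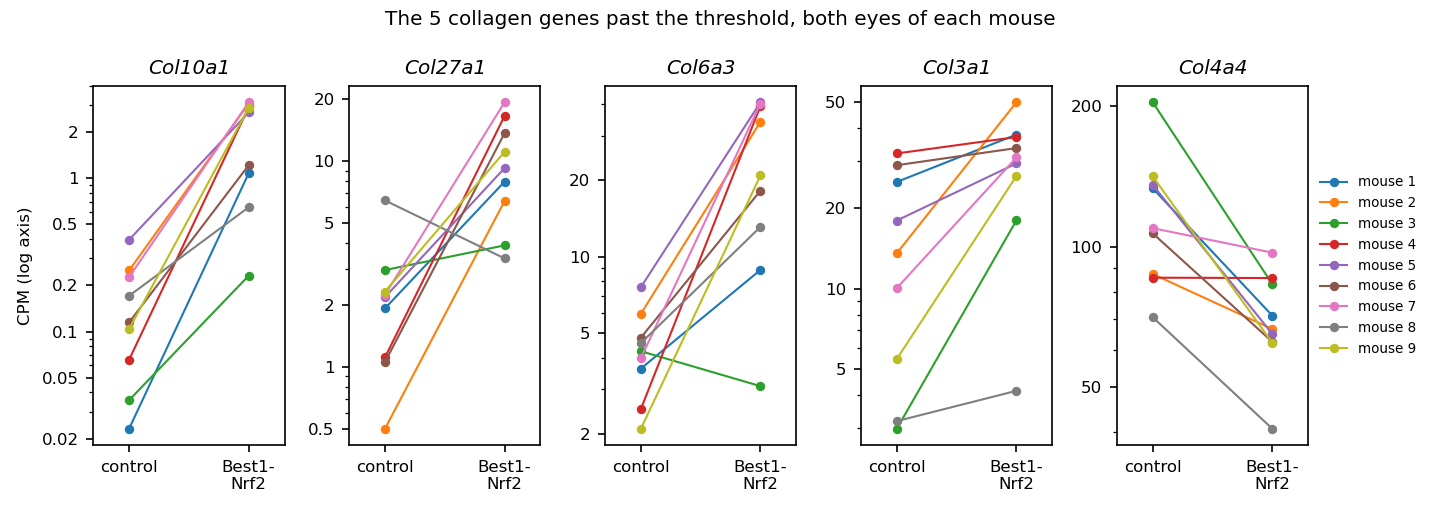
CPM (log axes, 1 panel per gene) of the 5 collagen genes past the threshold in the control and the Best1-Nrf2 eye of each of 9 mice, joined by lines colored by mouse. Col10a1 and Col3a1 rise in every mouse, Col6a3 in all but mouse 3 and Col27a1 in all but mouse 8, while the Col4a4 line of mouse 4 is flat and the other 8 fall.

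Among the 6 type IV chains 1 fell, none rose and 5 did not pass, where 1.13% of all genes fell and 3.12% rose. Their median log2 fold change was 0.04. Col4a4, a chain of the α3α4α5 network of specialized basement membranes such as that of the kidney glomerulus, had 70.6 to 204 CPM (median 110) in control and 40.7 to 97.1 CPM (median 66.6) in Best1-Nrf2 eyes. It was lower in 9 of 9 mice after Best1-Nrf2, as 1.22% of all genes were, although the log2 difference in mouse 4 was only -0.00249, and 6 control libraries lay above the highest Best1-Nrf2 library. The log2 change was -0.73 ± 0.17 (adjusted p = 0.0267), and the adjusted p was 0.062 to 0.0981 without mouse 1, 3, 5, 8 or 9. Col4a3, read in the opposite direction from the far side of the same 71 bases, had 34.4 to 192 CPM (median 70.2) in control and 33.7 to 109 CPM (median 59.3) in Best1-Nrf2 eyes. It was also lower in 8 of 9 mice, all but mouse 2, with a log2 change of -0.26 ± 0.19 (adjusted p = 0.69). Col4a5, the last chain of that network, had 13.2 to 60.5 CPM (median 36.0) in control and 16.5 to 88.6 CPM (median 41.1) in Best1-Nrf2 eyes, with 0.12 ± 0.24 (adjusted p = 0.921).

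Col4a1 and Col4a2, the pair found in nearly all basement membranes, start 22 bases into each other on chromosome 8. They had log2 changes of 0.20 ± 0.30 and 0.55 ± 0.29 (adjusted p = 0.884 and 0.481), and Col4a6, which starts 1308 bases from Col4a5 on the X chromosome, had -0.04 ± 0.24 (adjusted p = 0.977). These 3 are given, outside the rule for naming genes, so that all type IV chains are shown. The summed type IV level was 153 to 463 CPM in control and 137 to 370 CPM in Best1-Nrf2 eyes and was higher in 1 of 9 mice. The partners of type IV collagen did not pass either. Of 17 laminin, nidogen and other basement membrane genes none was past the threshold, beside 4.25% of all genes. Their median log2 fold change was 0.17. The multiplexins Col18a1 and Col15a1, which lie next to basement membranes, had log2 changes of 0.62 ± 0.30 and -0.38 ± 0.69 (adjusted p = 0.424 and 0.917). Col18a1 ranged from 30.2 to 646 CPM over the control eyes alone.

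The most abundant collagens did not pass. Col8a1 had 305 to 2344 CPM (median 880) in control and 399 to 1368 CPM (median 1010) in Best1-Nrf2 eyes, with a log2 change of -0.01 ± 0.19 (adjusted p = 0.992). Col8a2 had 118 to 2616 CPM (median 325) and 80.7 to 1153 CPM (median 297), with -0.33 ± 0.34 (adjusted p = 0.808). The groups overlapped in both genes, and mouse 8 was lowest in each group.

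None of the 8 fibril-associated genes tested passed, and their median log2 change was 0.16. Col9a3 had 179 to 1681 CPM (median 751) in control and 133 to 788 CPM (median 566) in Best1-Nrf2 eyes. It was lower in 8 of 9 mice, and 4 control libraries lay above the highest Best1-Nrf2 library. Its change of -0.70 ± 0.24 had an adjusted p of 0.19. Tcfl5, which shares 234 exon bases with Col9a3 on the opposite strand, fell (log2 fold change -1.08, adjusted p = 0.0215). The library kit does not mark strand, and the part of those bases in the Col9a3 value was not tested. The other chains of type IX collagen, Col9a1 and Col9a2, had log2 changes of -0.09 ± 0.37 and 0.22 ± 0.44 (adjusted p = 0.964 and 0.924), and Col22a1, a collagen of muscle-tendon junctions, had 1.19 ± 0.61 (adjusted p = 0.462). Col12a1 was singled out after its values were seen, with 0.85 ± 0.33 (adjusted p = 0.26) and higher values in 7 of 9 mice. The remaining 3, Col14a1, Col16a1 and Col20a1, had log2 fold changes of 0.25, 0.10 and -0.76.

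The 4 transmembrane collagens ran from -0.65 to 0.36 in log2 fold change without passing. Col17a1, which ties epithelial cells to their basement membrane, had 13.6 to 286 CPM (median 76.0) in control and 4.25 to 267 CPM (median 100) in Best1-Nrf2 eyes. Mice differed in direction, from -5.78 on the log2 scale in mouse 4 to 1.83 in mouse 1, and the log2 change of -0.60 ± 0.87 (adjusted p = 0.882) has the largest error of the 39 genes. Col23a1 was at 8.61 to 104 CPM in control and 16.3 to 149 CPM in Best1-Nrf2 eyes, with a log2 change of 0.36 ± 0.28 (adjusted p = 0.708). Col25a1, -0.65 ± 0.34, and Col13a1, 0.28 ± 0.44, complete this class. Col7a1, the anchoring fibril collagen of skin, had a log2 change of -0.33 ± 0.56, and Col26a1 had -0.42 ± 0.38 (adjusted p = 0.905 and 0.763).

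Mice differed in the direction in which most collagens went. The median collagen difference between the eyes of a mouse ran from -0.35 in mouse 4, with 10 of 39 genes higher in the Best1-Nrf2 eye, to 0.89 in mouse 3, with 27 of 39 higher. The median over all genes stayed between -0.07 and 0.07 in each mouse. Mouse 8 had the lowest library for 20 of 39 collagens among controls and for 19 of 39 among Best1-Nrf2 eyes. The control eye of mouse 1 was highest for 16 of 39. The control eye of mouse 8 also had the lowest sums of controls for 7 of the 11 marker lists, those of RPE, Müller glia, macrophages, fibroblasts, cartilage, pericytes and endothelium, and its control library was the smallest of all, with 18956748 counts. Without mouse 8 there were 4 collagens past the threshold, and Col4a4 was not among them.

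**Figure D4:**
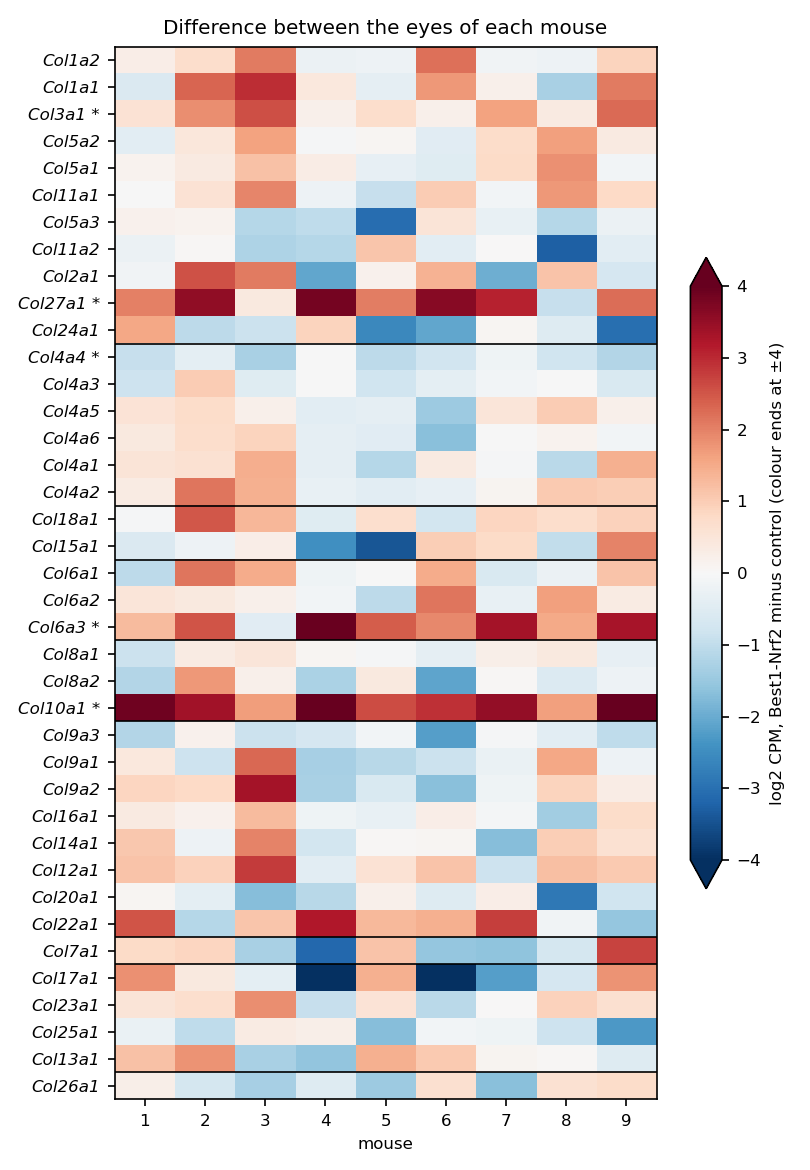
Difference in log2 CPM between the Best1-Nrf2 and the control eye of each mouse (columns) for the 39 tested collagen genes (rows, by class; asterisks mark the 5 past the threshold; color ends at ±4). The row of Col10a1 is red throughout and that of Col4a4 blue or near white throughout, while the columns of mice 2 and 3 are mostly red and that of mouse 4 mostly blue.

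Some collagens, such as types I, IV, VI and IX, join the chains of more than one gene. The ratio of 2 chains was compared within each mouse by a 2-sided exact sign-flip permutation test over 12 pairs. With 9 mice this test allows no p below 0.00391. Of the pairs, 11 are of chains of the same type and 1, Col3a1 to Col1a1, is of chains of different types. None passed after Benjamini-Hochberg adjustment, and 2 had an unadjusted p under 0.05. The ratio of Col4a3 to Col4a4 per length had a median of 0.681 in control and 0.979 in Best1-Nrf2 eyes. On the log2 scale it was higher by 0.48 ± 0.46 (SD, n = 9) in the Best1-Nrf2 eye and higher in 8 of 9 mice, with a permutation p of 0.00781 (adjusted p = 0.0938). The fall of Col4a4 and the smaller estimate for Col4a3 are therefore not shown to differ. The ratio of Col6a3 to Col6a1 had medians of 0.403 and 1.58 per length and was higher by 1.73 ± 1.88 (SD, n = 9) on the log2 scale in 8 of 9 mice (permutation p = 0.0234, adjusted p = 0.141). The difference between the changes of these chains likewise did not pass. The ratio of Col9a3 to Col9a2, chains that join one to one in type IX collagen, had a median of 43.2 in control eyes (16.9 to 103) and of 26.1 in Best1-Nrf2 eyes (2.13 to 145; permutation p = 0.0703, adjusted p = 0.281). The ratios of Col1a1 to Col1a2 (medians 0.290 and 0.382) and of Col4a1 to Col4a2 (0.959 and 0.855) had adjusted p of 0.553 and 0.505 in the same permutation test.

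**Figure D5:**
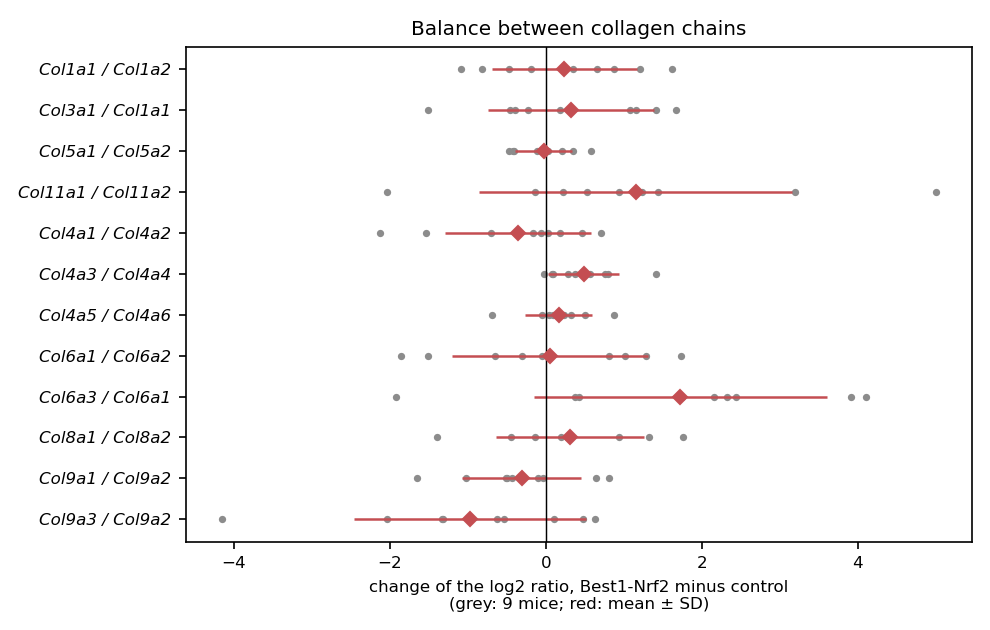
Change of the log2 ratio of 2 collagen chains, Best1-Nrf2 minus control, for 12 chain pairs; grey points are the 9 mice and red diamonds with bars the mean ± SD. The points of Col4a3 to Col4a4, of Col4a5 to Col4a6 and of Col5a1 to Col5a2 lie closely together. For Col4a3 to Col4a4, 8 of 9 are above 0. Those of Col6a3 to Col6a1 and of Col11a1 to Col11a2 spread widely.

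Genes that make, secrete and degrade collagen were counted from lists that hold no collagen. Of 14 genes for hydroxylation and glycosylation of collagen tested, 1 rose. This was Crtap, a part of the complex that hydroxylates prolines, from 42.6 ± 11.1 to 72.1 ± 19.9 CPM (mean ± SD, n = 9, log2 fold change 0.77, adjusted p = 0.0214), a call lost in 5 of 19 alternatives. Of 8 genes for folding and export 1 rose, Creb3l1, a transcription factor known to drive collagen secretion, from 0.866 ± 0.412 to 2.65 ± 1.34 CPM (SD, n = 9, log2 fold change 1.60, adjusted p = 0.0129). The chaperone Serpinh1, with a log2 fold change of -0.06, the hydroxylase subunit P4hb with 0.30 and the crosslinking enzyme Lox with 0.60 did not pass, nor did any of 6 genes for propeptide removal and 5 for crosslinking. Among 11 collagenases, gelatinases and inhibitors, 2 rose and 1 fell. Mmp9, a gelatinase, had 0 to 2.00 CPM in control and 2.95 to 13.9 CPM in Best1-Nrf2 eyes, with an adjusted p of 0.00866. The groups did not overlap, as 1.17% of all genes did not. The count minimum was reached by 4 control and 9 Best1-Nrf2 libraries, so this gene also entered the test through the group in which it was high. The macrophage and microglia markers given above, cells known to make this enzyme, were higher in sum in 7 of 9 mice, and their part in it was not tested. Mmp2, the other gelatinase, rose in 9 of 9 mice, as 3.12% of all genes did. Its level went from 6.77 ± 3.30 to 13.03 ± 3.27 CPM (SD, n = 9, log2 fold change 1.09, adjusted p = 0.0157). This call was lost without the block (adjusted p = 0.106), with the rod and cone covariate (0.472) and without mouse 7 or 9 (0.0518 and 0.0511). Timp3, the metalloproteinase inhibitor deposited in Bruch's membrane, fell in 9 of 9 mice, as 1.22% of all genes did. Its level went from 2418 ± 1456 to 1216 ± 497 CPM (SD, n = 9, log2 fold change -0.86, adjusted p = 0.0473). That call was lost in 12 of 19 alternatives, among them the fit without the block (adjusted p = 0.198) and the fits without any 1 mouse but mouse 8 (0.0601 to 0.156). Mmp14 had a log2 fold change of -0.24 and Timp1 of 0.39, and neither passed. None of 9 collagen receptor genes passed, with Ddr1 at 0.26 and Ddr2 at 0.12, nor did Sparc, a collagen-binding protein of basement membranes, at 0.20. Of the 70 genes of these lists that were tested 5 were past the threshold, beside 4.25% of all genes. These 5 include Mmp9, which entered the test through the group in which it was high. When the pairing by mouse was left out 3 were past it, beside 3.91% of all genes. With the rod and cone covariate none of these 5 passed, with log2 fold changes of 1.67 for Creb3l1, 6.30 for Mmp9, 0.50 for Crtap, 0.73 for Mmp2 and -1.22 for Timp3 (adjusted p = 0.28, 0.193, 0.516, 0.472 and 0.233).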

How the data were processed

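RPE RNA from both eyes of 9 rd1 mice was measured by RNA-seq of polyA RNA amplified with a kit that marks neither strand nor molecules. The authors aligned reads to mm10 with STAR, counted with featureCounts, and also ran Salmon (0.8.1 per the submitters' processing notes). The deposited table holds expected counts per gene, rounded to whole numbers, as judged from near-identical genes with equal values, and which of the counters made it is not given in the sources used here. 2 sequencing runs are not assigned to libraries. Symbols were found for 47310 of 47729 gene IDs. The members and lists were chosen with earlier results of these data known. edgeR 4.0.16 was run on all 18958 genes kept by filterByExpr (minimum count 10), with TMM scaling and mouse as a block, since the labels give both eyes the number of the same animal. The median correlation of the deviations of paired eyes was -0.00095 (-0.37 to 0.64). P-values were adjusted by Benjamini-Hochberg (threshold 0.05). Log2 CPM used a prior count of 2. Lengths are those of the longest principal transcript in GENCODE vM21. Named genes were the collagens past the threshold, the 3 with the highest level per length in each class and the 5 with the largest absolute change, and in the other lists those past the threshold and 10 set genes. The fit was tested on simulated data. Alternatives were DESeq2 1.42.0, limma 3.58.1 voom, other scalings and filters, a photoreceptor covariate, no block and leaving out mice.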

Additional observations from a re-analysis of the deposited data

Results flagged for a closer look

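In 4 of 48 groups of 9 libraries screened, 1 library stood apart from the others by Dixon's criterion of the gap relative to the range, where chance gives about 2.4, or 1 in 20. The control eye of mouse 1 was highest for Col1a1, at a log2 CPM of 5.94 against 4.25 for the next library, or 61.4 CPM. The Best1-Nrf2 eye of mouse 8 was lowest for Col3a1, at 2.07 against 4.17, or 4.14 CPM. The control eye of mouse 8 was lowest for Col4a5, at 3.73 against 4.91, or 13.2 CPM. The Best1-Nrf2 eye of mouse 6 was highest for Col6a2, at 4.46 against 2.23, or 21.9 CPM.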

How the results depend on the processing

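The count of collagens past the threshold was 5 in DESeq2 and in voom with sample weights, where 7.8% and 7.52% of all genes passed, and 5 under RLE and upper-quartile scaling (4.19% and 4.15%) and at a threshold of 0.1. There were 4 without the replicate block (Col3a1 lost), without a count filter (Col4a4 lost), with at least 10 counts in every library (Col10a1 not tested) and without mice 6 and 8 (Col4a4 lost), an alternative chosen after seeing the data. Of all genes 3.91%, 2.25%, 4.67% and 5.97% passed in these 4 fits, in that order. Leaving out 1 mouse gave 1 to 5, beside 2.84% to 5.53% of all genes. There were 3 without mouse 1, 2, 3 or 7, 2 without mouse 9 and 1, Col6a3, without mouse 5, where Col10a1 was not tested. With the mean level of rod and cone markers as a covariate no collagen passed, and 42 of 18958 genes did. The cause was not tested. The fitted changes of Col10a1, Col27a1, Col6a3 and Col4a4 kept their direction there, at 3.04, 2.84, 1.84 and -0.54, and so did that of Nfe2l2, at 1.87, though its call was lost. Class medians moved to 1.58 for type VI, -0.53 for type IV and -2.44 for Col7a1, the only anchoring fibril collagen. Those of the multiplexins and the fibril-associated collagens turned from 0.12 and 0.16 to -0.67 and -0.39. The collagen median was then -0.22, and reversed estimates were -0.0761 for Col3a1 (adjusted p = 0.96), -0.50 for Col18a1, -0.68 for Col23a1, 0.28 for Col25a1, -0.798 for Col4a5, -1.12 for Col9a2, -1.13 for Ddr1, -1.59 for Ddr2 and -0.693 for P4hb.

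Col6a3 passed in all alternatives but the covariate (18 of 19), Col10a1 in 16 of 17, Col27a1 in 13 of 19 (lost also without mouse 2, 4, 5, 7 or 9), Col3a1 in 11 of 19 (lost also without mouse 1, 2, 3, 5, 7 or 9) and Col4a4 in 11 of 19 (lost also without mouse 1, 3, 5, 8 or 9). Of the other genes, Timp3 kept its call in 7 of 19 alternatives, Crtap in 14 and Mmp2 in 15, and Crtap was lost without mouse 4, 5, 7 or 9 and Mmp2 without mouse 7 or 9. The 5 genes of the other lists became 12 of 70 in DESeq2, beside 7.8% of all genes, 3 without the block, beside 3.91%, and 2 to 6 when 1 mouse was left out, beside 2.84% to 5.53%. Some estimates that did not pass changed sign. Leaving out 1 mouse gave -0.682 to 0.00579 for Col7a1, -0.0585 to 0.145 for Col8a1 (above 0 without mouse 1, 6 or 9), -0.326 to 0.0741 for Col9a1 (without mouse 2, 4, 5 or 6), -0.0615 to 0.464 for Col9a2, -0.00651 to 0.407 for Ddr2 and -0.273 to 0.0892 for Serpinh1 (without mouse 1, 4 or 6), and -0.105 to 0.0251 and -0.158 to 0.291 for the ratios of Col5a1 to Col5a2 and of Col6a1 to Col6a2. Without a filter Col8a1 was at 0.0119. In voom it was at 0.012, Col9a1 at 0.00561 and Serpinh1 at 0.0381. Without mice 6 and 8, Col6a2 was at -0.000998, Mmp14 at 0.0587 and Serpinh1 at 0.167. The lowest genes had few counts: 5 collagens were not tested, and Col10a1 rests on 1 to 10 counts per control library.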
